A study of Rattus norvegicus with 5 samples.

Results

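*Lcn2*, *C3*, *Cp*, *Hp*, *A2m* and *Tf* encode secreted proteins of the acute phase response, and their transcripts were read here in cultured cells of the fetal rat hypothalamus. Every probe set of the rat U34A array whose only annotated gene was one of these 6 genes was taken, over all 5 arrays. This gave 13 of 8740 probe sets: 1 for *Lcn2*, 2 for *C3*, 3 for *Cp*, 1 for *Hp* and 6 for *A2m*. *Tf* had 0, since its 3 probe sets are annotated to *Srprb* as well, so 5 of the 6 genes were measured by a probe set of their own. The 6 genes were chosen because of their signals on these arrays. Their values are therefore given as a description, with no test.

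The arrays compared 3 cell populations, all from primary cultures of the hypothalamus of Wistar rat embryos at day 17. GFP+ cells (2 arrays) were transfected 24 h after seeding, by polyethylenimine, with a plasmid in which the *Trh* promoter drives GFP, and were sorted for green fluorescence 48 h later; their RNA was a pool of 6 experiments. GFP+/- cells (2 arrays) were transfected in the same way and went through the sorter without selection, so that they hold cells with and without GFP, and NT cells (1 array) were not transfected; each of these RNAs was a pool of 3 experiments. The sorted cells are those in which the transfected promoter was active, whether or not they make TRH peptide. The sources used here do not state whether NT cells passed the sorter. By the methods, both GFP+ arrays carried aliquots of the same pool, and so did both GFP+/- arrays. The labels name them biological replicates, so the spread between them may be technical, and p-values measure only the spread between these arrays, not that between cultures. Values are MAS 5.0 signals, linear intensities on an arbitrary scale, and levels of different probe sets cannot be set against each other.

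Acute phase proteins are plasma proteins whose output from the liver changes during inflammation. Interleukin-1 and tumour necrosis factor act through NF-kappaB, and cytokines of the interleukin-6 family act through STAT3 and C/EBP factors, to switch on their genes. In brain, astrocytes, microglia, choroid plexus and meningeal cells can make several of them. Lcn2 (lipocalin 2) binds bacterial siderophores and so withholds iron, C3 is the central component of complement, and Cp (ceruloplasmin) carries copper and oxidises iron. Hp (haptoglobin) captures free haemoglobin, A2m (alpha-2-macroglobulin, a major acute phase protein of the rat) traps proteases, and Tf (transferrin) carries iron in plasma.

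The stretches upstream of *Lcn2* and *C3* are shown because these genes had the highest ratios over NT cells among the 6. Both are from RefSeq on assembly GRCr8, and both genes lie on the minus strand. Capitals mark matches, on either strand, to a kappaB-like motif (GGGANNNNCC) and a C/EBP-like motif (TTGCNNAA). Positions count back from the start site of the RefSeq table, and the *Lcn2* stretch ends where its annotated gene begins.

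*Lcn2*, chr3:36081852-36082030 (bases -250 to -72): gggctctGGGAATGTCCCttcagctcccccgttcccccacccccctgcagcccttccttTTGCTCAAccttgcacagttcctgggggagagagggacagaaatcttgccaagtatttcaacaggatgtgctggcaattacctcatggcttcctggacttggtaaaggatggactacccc

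*C3*, chr9:2201340-2201589 (bases -250 to -1): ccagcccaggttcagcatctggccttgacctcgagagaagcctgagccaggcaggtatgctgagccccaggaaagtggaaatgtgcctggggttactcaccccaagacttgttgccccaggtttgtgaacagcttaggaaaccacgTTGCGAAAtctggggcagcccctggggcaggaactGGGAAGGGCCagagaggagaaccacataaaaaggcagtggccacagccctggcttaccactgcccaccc

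The *Lcn2* stretch held 2 overlapping kappaB-like matches, at -243 to -234 and at -242 to -233, and a C/EBP-like match at -191 to -184. The *C3* stretch held a kappaB-like match at -69 to -60 and a C/EBP-like match at -104 to -97. Of 33469 rat promoters, the same 250 bases held the kappaB-like letters in 16.4% and the C/EBP-like letters in 9.22%. A STAT-like motif (TTCNNNGAA, in 7.67% of promoters) and the letters TATAAA (in 12.9%) had no match in either gene. In the *Cp* and *Tf* windows, a C/EBP-like match and TATAAA were found and the kappaB-like letters were not. These matches describe the letters only.

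By the ratio of averaged signals, *Lcn2* was the transcript most raised over NT cells in both transfected populations. Its probe set (rc_AA946503_at) had signals of 3507 and 3557 on the GFP+ arrays, 3746 and 3703 on the GFP+/- arrays and 14.0 on the NT array. All 4 arrays of transfected cells were high and close together, whereas the NT signal was near the floor. A signal was called near the floor when it was below the 20th percentile of its own array, which was 19.4 and 20.9 for GFP+, 16.3 and 17.7 for GFP+/- and 19.3 for NT. The mean of GFP+ cells, 3532 ± 35.3 (SD, n = 2 arrays), was 253 times the NT signal. That of GFP+/- cells, 3724 ± 30.2 (SD, n = 2), was 266 times the NT signal. Both ratios ranked 1 among 8740 probe sets. Since NT was near the floor, the ratios were also taken with NT at the 20th percentile of its array, and were then 183 for GFP+ and 193 for GFP+/- cells.

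*C3* was read by a pair of probe sets that did not behave alike. X52477_at had 106 and 244 in GFP+ cells, 330 and 165 in GFP+/- cells and 5.29 in NT cells. Every array of transfected cells was above NT, and the GFP+ and GFP+/- arrays overlapped. The 2 GFP+ arrays were 2.31-fold apart and the 2 GFP+/- arrays 2.00-fold apart. Among the 1748 probe sets in the same 20% by mean signal, 11.4% differed by more than 2-fold between the GFP+ arrays and 10.6% between the GFP+/- arrays. The means, 175 ± 98.1 (SD, n = 2) in GFP+ cells and 248 ± 117 (SD, n = 2) in GFP+/- cells, were 33.1 and 46.8 times the NT signal, ranks 13 and 5 of 8740. With NT at its 20th percentile the ratios were 9.06 for GFP+ and 12.8 for GFP+/- cells, and with all signals raised in this way they ranked 44 and 23. The other set, M29866_s_at, had 7.05 and 11.8 in GFP+ cells, 6.64 and 10.9 in GFP+/- cells and 4.33 in NT cells. It was near the floor on all 5 arrays, as were 932 of 8740 probe sets (10.7%), and gave no usable level.

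*Cp* was higher in transfected than in NT cells by a pair of its 3 probe sets. L33869_at had 592 and 568 in GFP+ cells, 483 and 380 in GFP+/- cells and 71.1 in NT cells. None of the 3 populations overlapped for this set, and its NT signal was above the floor. The means were 580 ± 16.9 (SD, n = 2) in GFP+ cells, 8.15 times NT, and 432 ± 73.0 (SD, n = 2) in GFP+/- cells, 6.07 times NT. The second set, rc_AA817854_s_at, had 188 and 60.3 on the GFP+ arrays, 232 and 87.4 on the GFP+/- arrays and 16.03 on the NT array. Its arrays were 3.12-fold apart in GFP+ and 2.66-fold apart in GFP+/- cells, and its NT signal was near the floor. The ratios of means over NT were 7.75 for GFP+ and 9.97 for GFP+/- cells, and 6.43 and 8.27 with NT at its 20th percentile. The third set, Y12178_at, had 80.1 and 42.6 in GFP+ cells, 66.4 and 51.7 in GFP+/- cells and 63.9 in NT cells, and all populations overlapped.

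*Hp* was higher in transfected than in NT cells by less than 2-fold. K01933_at had 429 and 369 in GFP+ cells, 331 and 307 in GFP+/- cells and 257 in NT cells. The arrays did not overlap between populations. The mean of GFP+ cells, 399 ± 42.6 (SD, n = 2), was 1.55 times NT, and that of GFP+/- cells, 319 ± 16.5 (SD, n = 2), was 1.24 times NT.

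The 6 probe sets of *A2m* did not share a direction. M23566exon_s_at had 2892 and 6897 on the GFP+ arrays, 7700 and 5588 on the GFP+/- arrays and 3507 on the NT array. The GFP+ arrays lay on either side of NT and were 2.38-fold apart, where 2.29% of the brightest 20% of probe sets were more than 2-fold apart. Its GFP+ mean was 1.40 times NT and its GFP+/- mean 1.89 times NT. X13983mRNA_at had 479 and 506 in GFP+ cells, 373 and 318 in GFP+/- cells and 367 in NT cells, so that GFP+ cells were above the other arrays and GFP+/- cells lay on either side of NT. The set rc_AA900582_at stayed between 230 and 301 on all 5 arrays. M22670cds_g_at had 116 and 196 on the GFP+ arrays, 88.0 and 81.7 on the GFP+/- arrays and 45.1 on the NT array, with ratios over NT of 3.45 for GFP+ and 1.88 for GFP+/- cells. For rc_AI113046_at the order of the transfected populations was the other way round, with 45.0 and 133 in GFP+ cells, 142 and 166 in GFP+/- cells and 39.0 in NT cells. Its ratios over NT were 2.29 for GFP+ and 3.95 for GFP+/- cells. M22670cds_at was near the floor on all 5 arrays, with signals between 2.84 and 5.80.

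*Tf* could not be read apart from *Srprb*, a subunit of the signal recognition particle receptor, because 3 probe sets are annotated to both genes. D38380_g_at had 3200 and 2046 on the GFP+ arrays, 1750 and 1300 on the GFP+/- arrays and 309 on the NT array. D38380_at had 1581 and 1072 in GFP+ cells, 763 and 756 in GFP+/- cells and 316 in NT cells. U31866_g_at had 120 and 105 on the GFP+ arrays, 124 and 112 on the GFP+/- arrays and 21.7 on the NT array. All 4 arrays of transfected cells were above NT for the 3 sets, with ratios between 2.40 and 8.48, and which of the 2 genes gave the signal cannot be told apart.

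**Figure D1:**
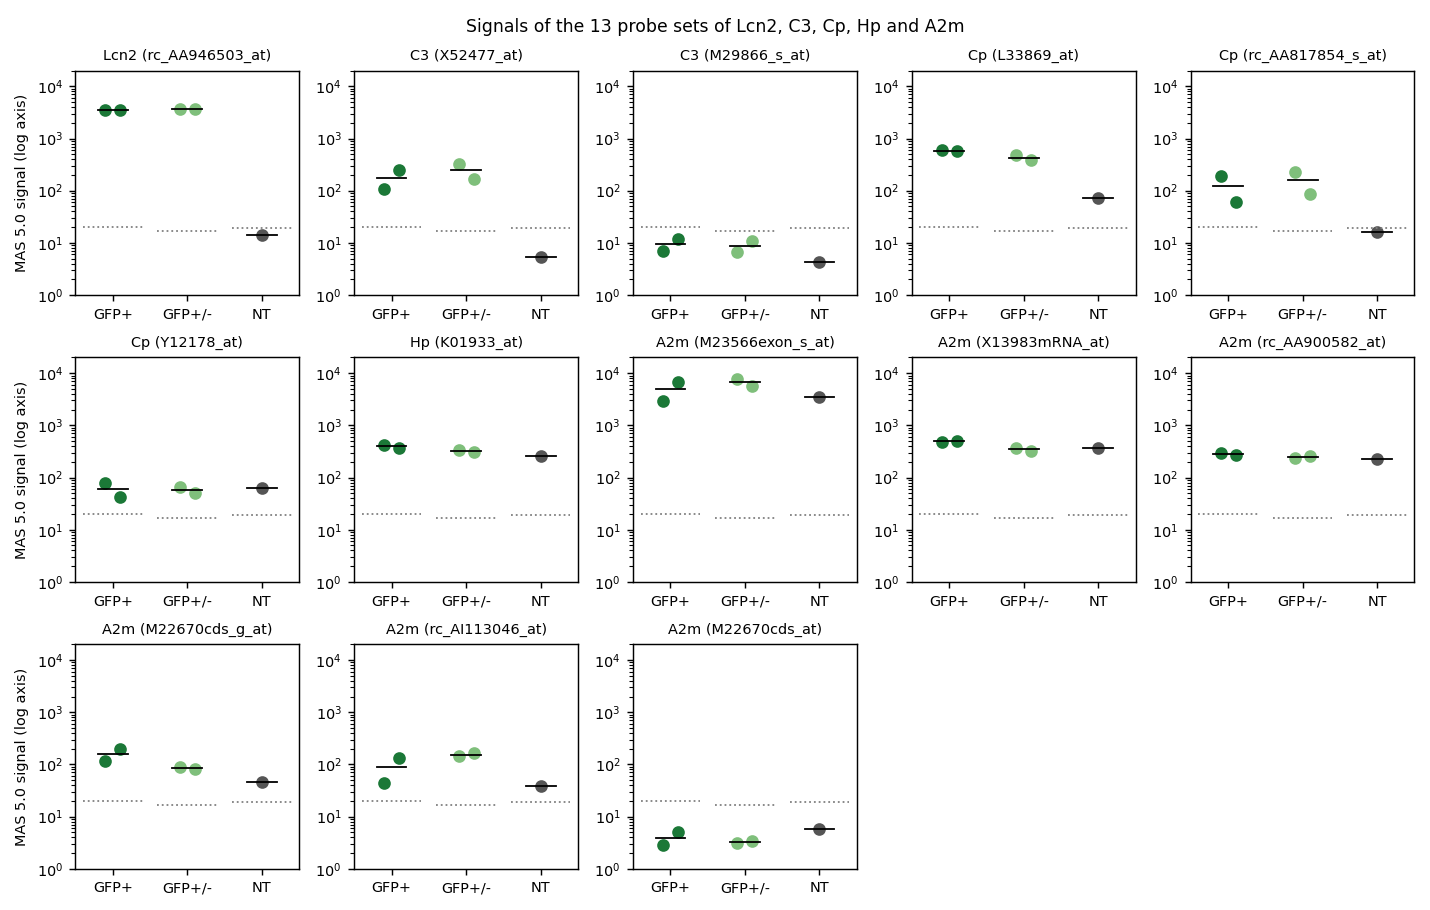
MAS 5.0 signal (log axis) of each of the 13 probe sets on the 2 GFP+, 2 GFP+/- and 1 NT arrays. Points are arrays, bars are population means and dotted lines are the mean 20th percentile of the arrays of a population. The NT point is near the floor for *Lcn2*, both *C3* sets, 1 *Cp* set and 1 *A2m* set, and the *Lcn2* set has transfected signals between 3507 and 3746.

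Read over NT, the 13 probe sets leaned upward in both transfected populations. In GFP+ cells, 7 of 13 had a mean more than 2-fold above NT, where 14.5% of all 8740 probe sets did, and 10 of 13 had every array above NT, where 41.5% of all did. In GFP+/- cells, 6 of 13 were more than 2-fold above NT (12.1% of all) and 10 of 13 had every array above NT (35.2% of all). In each comparison, M22670cds_at of *A2m* alone had every array below NT (35.9% of all for GFP+ and 44% for GFP+/- cells). The sets above 2-fold include M29866_s_at of *C3*, which was near the floor throughout, and with signals raised to the 20th percentile of their array there were 6 for GFP+ (11.3% of all) and 5 for GFP+/- cells (9.42% of all). No member set was more than 2-fold below NT in either (0 of 13, against 12.3% of all for GFP+ and 15.2% for GFP+/- cells). The median log2 ratio of the 13 sets was 1.12 for GFP+ and 0.92 for GFP+/- cells. The median log2 difference of all probe sets was 0.056 for GFP+ and -0.094 for GFP+/- cells. That difference is between means of log2 signals, whereas the ratio is of averaged signals, so the measures are not the same. The members were chosen on these contrasts, so nothing follows from these shares. Both comparisons use the same NT array, which adds no spread of its own, so they are not independent.

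The pattern of *Lcn2*, bright in transfected cells and near the floor in NT cells, was rare on the array. Of 8740 probe sets, 1748 were near the floor in NT cells by the definition of the floor, and in 13 of these (0.149% of all) all 4 transfected signals were above the median of their array. All 4 transfected signals were more than 10 times the NT signal in 28 probe sets (0.320%), 15 of which were near the floor in NT cells. Transfection, pool and array cannot be told apart in any ratio over NT. The same holds for passage through the sorter, if NT cells did not go through it.

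**Figure D2:**
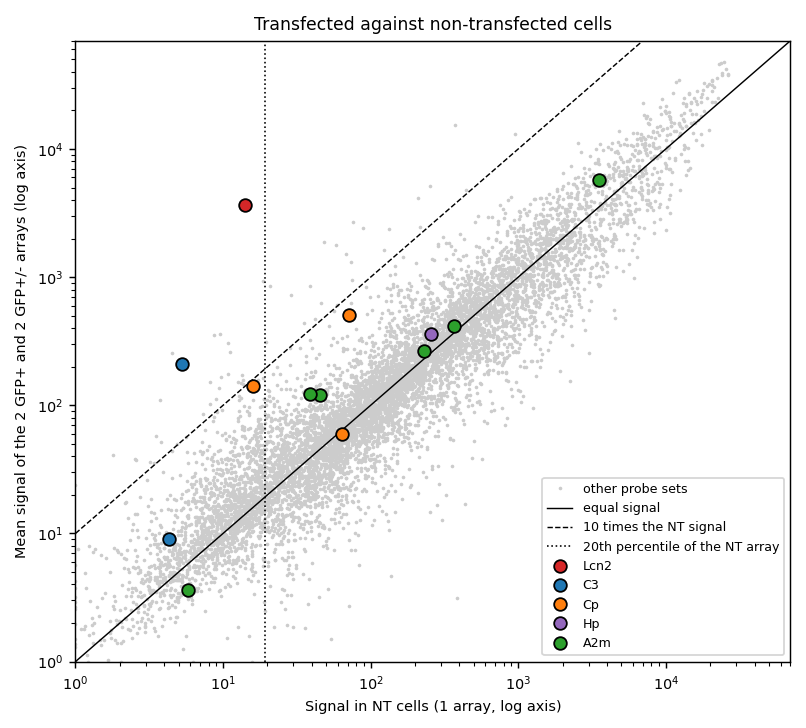
Mean signal of the 4 arrays of transfected cells against the signal of the NT array, both on log axes, for 8740 probe sets. Coloured points are the 13 probe sets, the dotted line is the 20th percentile of the NT array (19.3), and *Lcn2* is the point farthest above the line of equal signal.

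By the ratio of means, no member set was 2-fold apart between the sorted and the unselected cells. None was 2-fold higher in GFP+ than in GFP+/- cells (0 of 13, against 8.89% of all probe sets). None was 2-fold lower (0 of 13, against 4.18%). With signals raised to the floor of their array, 0 of 13 were 2-fold higher, against 5.49% of all. Counts this small do not set the members apart from the other probe sets. *Lcn2* was slightly lower in GFP+ cells on every array, with a ratio of means of 0.948, a log2 ratio of -0.076. The rc_AI113046_at set of *A2m* was also lower on every GFP+ array (ratio 0.580), where 15.4% of all probe sets were. On 5 of 13 sets every GFP+ array was higher, where 30.4% of all were. These were L33869_at of *Cp* (ratio 1.34), *Hp* (1.25), and X13983mRNA_at (1.43), rc_AA900582_at (1.17) and M22670cds_g_at (1.84) of *A2m*. The ratio for X52477_at of *C3* was 0.707, and its arrays overlapped.

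These small ratios depend on how the arrays are scaled. The median log2 difference of all probe sets between GFP+ and GFP+/- cells was 0.13 as deposited and -0.029 with the arrays set to equal medians. Under equal medians the log2 ratio was -0.23 for *Lcn2*, 0.17 for *Hp* and 0.27 for L33869_at of *Cp*, each in the direction it had as deposited. Of the 13 sets, 2 changed sign, M29866_s_at of *C3* (0.11 as deposited and -0.053 with equal medians) and Y12178_at of *Cp* (0.057 and -0.096), and both overlapped between the populations. Without GFP+ array 1, 2 member sets were more than 2-fold apart between GFP+ and GFP+/- cells (rc_AA817854_s_at of *Cp*, lower, and M22670cds_g_at of *A2m*, higher). Without GFP+ array 2 there were 3, all lower (X52477_at of *C3*, and M23566exon_s_at and rc_AI113046_at of *A2m*).

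**Figure D3:**
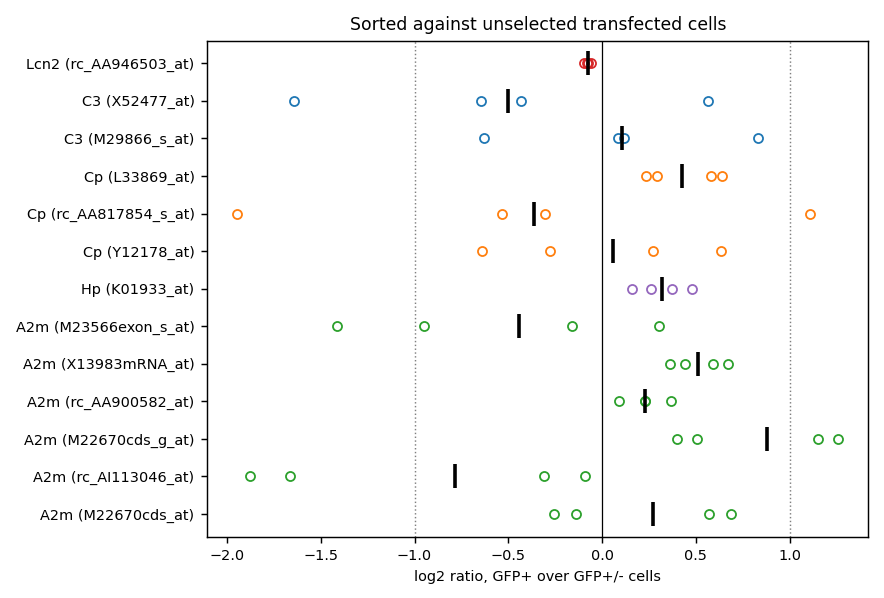
Log2 ratio of GFP+ over GFP+/- signals for the 13 probe sets. Each open circle is a ratio of 1 GFP+ array to 1 GFP+/- array (4 per set), the bar is the ratio of means and dotted lines mark 2-fold. Every bar lies inside the dotted lines, and the 4 circles of *Lcn2* nearly coincide.

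The genes whose signals followed *Lcn2* most closely were found by the Euclidean distance between log2 signals, centred on their mean over the 5 arrays, among probe sets with 1 gene. The 6 nearest were *RT1-S3* (distance 2.34), *Slc7a1* (2.74), *C3* (2.79), *Tap1* (2.84), *Glg1* (2.92) and *Cebpb* (2.97). *RT1-S3*, a class I histocompatibility gene, had 793 and 629 in GFP+ cells, 892 and 1428 in GFP+/- cells and 18.8 in NT cells. Its transfected signals were high and its NT signal low, as for *Lcn2*. *Slc7a1*, a transporter of cationic amino acids, had 388 and 158 on the GFP+ arrays, 464 and 416 on the GFP+/- arrays and 8.62 on the NT array. *Tap1*, a subunit of the peptide transporter for antigen presentation, had 580 and 385 in GFP+ cells, 244 and 230 in GFP+/- cells and 9.59 in NT cells. Both GFP+ signals of *Tap1* were above both of its GFP+/- signals. *Glg1*, a Golgi sialoglycoprotein, had 330 and 279 on the GFP+ arrays, 369 and 240 on the GFP+/- arrays and 10.8 on the NT array. All 6 were near the floor in NT cells, so the likeness turns on the same NT array.

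Genes of the pathway outside the 6 were taken from lists and tested with limma in a fit of all 5 arrays, with the brightest probe set standing for a gene and p adjusted over 8740 probe sets by Benjamini-Hochberg. The fit passed 383 probe sets as higher (4.38%) and 355 as lower (4.06%) in GFP+ against NT cells, and 367 as higher (4.2%) and 440 as lower (5.03%) in GFP+/- against NT cells. In GFP+ against GFP+/- cells it passed 0 in either direction. At an unadjusted p under 0.05 it passed 800 as higher (9.15%) and 415 as lower (4.75%) there.

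Among the inducers and signalling genes of the acute phase response, 28 of 36 were measured. In GFP+ against NT cells 6 rose and 0 fell, where 4.38% and 4.06% of all probe sets did. In GFP+/- against NT cells 5 rose and 0 fell, where 4.2% and 5.03% of all did. The list's median log2 difference was 0.70 for GFP+ and 0.38 for GFP+/- cells, against 0.056 and -0.094 over all probe sets. None of the measured inducing cytokines passed in either comparison (*Il6*, *Il1a*, *Il1b*, *Tnf*, *Lif* and *Cntf*), nor did *Stat3* or *Socs3*. *Il6* had 5.26 and 14.2 in GFP+ cells, 38.0 and 45.9 in GFP+/- cells and 30.2 in NT cells. Its log2 differences were -1.80 for GFP+ (adjusted p = 0.234) and 0.47 for GFP+/- cells (adjusted p = 0.788). *Il1b* had 0.92 for GFP+ (adjusted p = 0.248) and 1.82 for GFP+/- cells (adjusted p = 0.0517). *Cebpb*, a C/EBP factor that binds acute phase promoters, had 90.4 and 79.8 in GFP+ cells, 99.2 and 167 in GFP+/- cells and 3.71 in NT cells. Its log2 differences were 4.52 for GFP+ (SE 0.54, adjusted p = 0.0149) and 5.11 for GFP+/- cells (adjusted p = 0.0110). The NT signal was near the floor, and with signals raised to the 20th percentile of their array the differences were 2.14 for GFP+, which no longer passed (adjusted p = 0.0570), and 2.73 for GFP+/- cells (adjusted p = 0.0247). The other *Cebpb* probe set was near the floor throughout and did not pass (-0.63 for GFP+ over NT, adjusted p = 0.664).

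*Nfkbia*, the inhibitor of NF-kappaB that NF-kappaB itself induces, had 1171 and 1021 on the GFP+ arrays, 662 and 753 on the GFP+/- arrays and 183 on the NT array. It rose by a log2 difference of 2.58 in GFP+ (adjusted p = 0.00808) and 1.94 in GFP+/- cells (adjusted p = 0.0136). *Irf1*, an interferon-regulated transcription factor, had 1229 and 1011 in GFP+ cells, 760 and 797 in GFP+/- cells and 223 in NT cells, and rose by 2.32 in GFP+ (adjusted p = 0.0104) and 1.81 in GFP+/- cells (adjusted p = 0.0149). *Ccl2*, a chemokine that draws monocytes, had 1752 and 1327 on the GFP+ arrays, 4256 and 2185 on the GFP+/- arrays and 133 on the NT array. Its differences were 3.52 for GFP+ (adjusted p = 0.0149) and 4.52 for GFP+/- cells (adjusted p = 0.0109). Its second probe set passed in both comparisons as well. *Egr1*, an immediate early factor, had 5934 and 9837 in GFP+ cells, 6615 and 7042 in GFP+/- cells and 2266 in NT cells, and rose by 1.75 in GFP+ (adjusted p = 0.0374) and 1.59 in GFP+/- cells (adjusted p = 0.0440). The other 3 *Egr1* sets, with GFP+ differences between -0.39 and 1.14, did not pass, nor did the second sets of *Nfkbia* and *Irf1*. *Nfkb1*, a subunit of NF-kappaB, rose by 1.48 in GFP+ cells (adjusted p = 0.0332) and had a difference of 1.02 in GFP+/- cells that did not pass (adjusted p = 0.0772).

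Of the complement components other than C3, 18 of 32 were measured, and the same 3 genes rose in both transfected populations while 0 fell. Of all probe sets, 4.38% rose and 4.06% fell in GFP+ cells, and 4.2% rose and 5.03% fell in GFP+/- cells. *C1s*, a protease of the first component, had 1109 and 955 in GFP+ cells, 872 and 867 in GFP+/- cells and 74.3 in NT cells. Its log2 differences were 3.79 for GFP+ (SE 0.22, adjusted p = 0.00808) and 3.55 for GFP+/- cells (SE 0.22, adjusted p = 0.00514). Its partner *C1r* had 638 and 460 on the GFP+ arrays, 765 and 721 on the GFP+/- arrays and 126 on the NT array, and rose by 2.10 in GFP+ (adjusted p = 0.0158) and 2.56 in GFP+/- cells (adjusted p = 0.0111). *Serping1*, the inhibitor of both proteases, had 291 and 346 in GFP+ cells, 299 and 184 in GFP+/- cells and 40.0 in NT cells, and rose by 2.99 in GFP+ (adjusted p = 0.0158) and 2.55 in GFP+/- cells (adjusted p = 0.0222). *C1qb*, a chain of C1q that microglia make, had 90.9 and 10.2 on the GFP+ arrays, 10.2 and 16.6 on the GFP+/- arrays and 262 on the NT array and did not pass. The list's median log2 difference was 0.42 for GFP+ and 0.19 for GFP+/- cells over NT.

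Of 53 listed genes for other acute phase proteins made in liver, 32 were measured. In GFP+ against NT cells 2 of 32 rose and 0 fell, where 4.38% and 4.06% of all probe sets did. In GFP+/- against NT cells 3 of 32 rose and 0 fell, where 4.2% and 5.03% of all did. Counts this small lie near those shares. When only the brightest 41% of probe sets were tested, 6 of these genes remained. Of these, 3 rose in GFP+ and 4 in GFP+/- against NT cells, where 598 and 588 of 3583 probe sets rose. The list's median log2 difference was 0.30 for GFP+ and 0.091 for GFP+/- cells. The list was not split by direction and also holds proteins that fall in the acute phase, such as albumin. Its counts and median are therefore no measure of the acute phase response. *Serping1* and *Crp* passed in both comparisons. *Crp*, the gene of C-reactive protein, is uncertain: its brightest probe set, M13101cds_f_at, carries the suffix given to sets shared by a family of sequences, and rose by 2.83 in GFP+ (adjusted p = 0.00808) and 1.30 in GFP+/- cells (adjusted p = 0.0308), but its set without such a suffix, rc_AA818144_at, had -0.35 (adjusted p = 0.721) and -0.32 (adjusted p = 0.743). *Ttr*, the thyroid hormone carrier of plasma and choroid plexus, had 2961 and 5060 in GFP+ cells, 18147 and 17266 in GFP+/- cells and 3587 in NT cells. It rose by 2.30 in GFP+/- cells (adjusted p = 0.0226) and had 0.11 in GFP+ cells (adjusted p = 0.898), and its second probe set had 1.71 in GFP+/- cells and did not pass (adjusted p = 0.0818). Albumin (*Alb*), a liver protein that falls in the acute phase, had 38.8 and 69.1 on the GFP+ arrays, 34.2 and 36.6 on the GFP+/- arrays and 64.3 on the NT array.

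**Figure D4:**
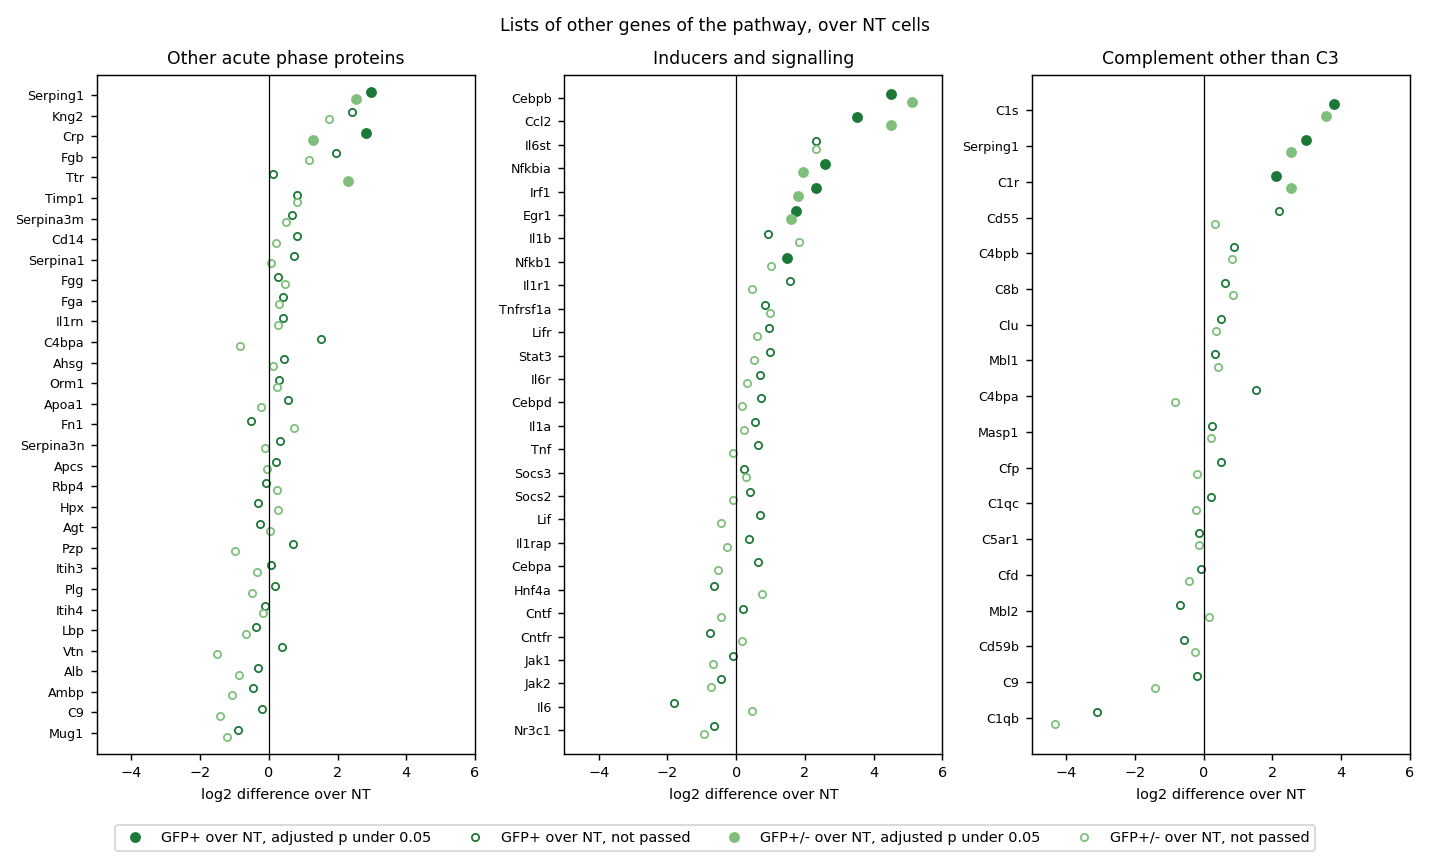
Log2 difference over NT of every measured gene of 3 lists, for GFP+ (dark) and GFP+/- cells (light). Filled points passed the adjusted test in limma and open points did not. The filled points all lie above 0, and most genes are open points.

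Genes for iron and copper handling other than *Tf* and *Cp* were measured for 14 of 30, and the same 2 rose in both comparisons with NT while 0 fell (median log2 difference 0.44 for GFP+ and 0.21 for GFP+/- cells). Over all probe sets, 4.38% rose and 4.06% fell in GFP+ cells, and 4.2% rose and 5.03% fell in GFP+/- cells. *Hmox1*, which breaks down haem, had 868 and 861 in GFP+ cells, 806 and 968 in GFP+/- cells and 433 in NT cells, with differences of 1.00 for GFP+ (adjusted p = 0.0492) and 1.03 for GFP+/- cells (adjusted p = 0.0432). The second *Hmox1* set, J02722cds_at, was near the floor in NT cells. It had 0.18 for GFP+ (adjusted p = 0.941) and 0.20 for GFP+/- cells (adjusted p = 0.937) and did not pass. *Mt3*, the metallothionein of brain, had 2271 and 2701 on the GFP+ arrays, 3498 and 3497 on the GFP+/- arrays and 1029 on the NT array, and rose by 1.27 in GFP+ (adjusted p = 0.0252) and 1.77 in GFP+/- cells (adjusted p = 0.0141). Of the receptors and carriers that bind the 6 proteins, 6 of 13 were measured, with medians of -0.39 for GFP+ and -0.45 for GFP+/- cells over NT. *Itgam*, a chain of complement receptor 3, had 2.39 and 1.58 in GFP+/- cells, both near the floor, against 24.2 in NT cells. It passed as lower (log2 difference -3.64, adjusted p = 0.0292), but with signals raised to the 20th percentile the difference was -0.51 and did not pass (adjusted p = 0.166). *Lrp2*, the endocytic receptor megalin, had 0.63 in GFP+ cells over NT (adjusted p = 0.489) and *Cr1l*, a complement regulator, -0.47 (adjusted p = 0.279), and neither passed. A second *Cr1l* set, D42116_s_at, fell in GFP+ (-1.55, adjusted p = 0.0326) and GFP+/- cells (-1.65, adjusted p = 0.0267). *Tfrc*, the transferrin receptor, had 7.96 and 14.8 in GFP+ cells, 30.9 and 6.68 in GFP+/- cells and 119 in NT cells. Its differences over NT were -3.45 for GFP+ (adjusted p = 0.106) and -3.05 for GFP+/- cells (adjusted p = 0.138). They did not pass, and both GFP+ signals were near the floor.

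Between GFP+ and GFP+/- cells, 0 genes of the 5 lists passed the adjusted test, where 0 of all 8740 probe sets passed. At an unadjusted p under 0.05, 4 of 28 inducers were higher and 4 lower. Of the other acute phase genes, 4 of 32 were higher and 2 lower, and of the complement genes 2 of 18 were higher and 0 lower. Over all probe sets 9.15% were higher and 4.75% lower, and counts this small do not set the lists apart. The differences with the smallest p were those of *Crp* (1.53, adjusted p = 0.121), *Ttr* (-2.19, adjusted p = 0.121), *Itgam* (3.32, adjusted p = 0.143, with both GFP+/- signals near the floor) and *Fn1*, which encodes fibronectin (-1.25, adjusted p = 0.152). *Nfkbia* had 0.63 (adjusted p = 0.247), *Ccl2* -0.9996 (adjusted p = 0.295) and *Il1b* -0.90 (adjusted p = 0.325). In the same comparison *Il1rap* had 0.64, *Cfp* 0.69, *C1qc* 0.44, *C1r* -0.45 and *Serping1* 0.44. *Alas1* had 0.66, *Aco1* 0.28, *App* 0.17, *Mt3* -0.50, *Lrp2* 0.52 and *Cr1l* 0.011.

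The calls against NT have a narrow base. The 25 calls of named list genes over NT came from 2 residual degrees of freedom and the prior. All 25 were lost when either GFP+/- array was left out or when the prior variance had no intensity trend. When either GFP+ array was left out, 8 were kept, and these were *Ttr*, *Cebpb*, *Nfkbia*, *Irf1*, *Ccl2*, *C1r*, *C1s* and *Mt3* in GFP+/- against NT cells.

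Markers of other cell types moved between the populations as well. In bulk RNA, fewer cells of a type and less RNA per cell cannot be told apart. The summed signal of 13 of 18 neuron markers was 33165 and 28714 in GFP+ cells, 21240 and 23047 in GFP+/- cells and 42349 in NT cells. That of 14 of 16 fibroblast and meninges markers was 15266 and 22189 on the GFP+ arrays, 46591 and 45192 on the GFP+/- arrays and 20356 on the NT array. Members of these 2 lists went different ways. *Nefh*, *Mapt*, *Ncam1*, *Syt1* and *Gad2* were not highest in NT cells, as the neuron sum was. The fibroblast sum was led by *Col1a1*, *Col1a2* and *Sparc*, whereas *Col3a1*, *Dcn*, *Lum* and *Vcan* were highest in NT cells. The sum of 10 of 14 endothelial and mural markers was 3336 and 5155, 10383 and 12564, and 2268, in the same order of arrays. The endothelial and mural sum was led by the smooth muscle genes *Acta2* and *Tagln*. Without them it was 1654 and 1839 in GFP+ cells, 1686 and 1670 in GFP+/- cells and 1034 in NT cells. Of that remainder, *Icam1* had 657 and 825 in GFP+ cells, 939 and 774 in GFP+/- cells and 184 in NT cells. *Vwf* went the other way and was highest in NT cells, so the sum does not speak for each member. For 8 of 16 choroid plexus markers the sum was 14619 and 15227 in GFP+ cells, 25000 and 25303 in GFP+/- cells and 19376 in NT cells. *Ttr* made up most of it in GFP+/- cells. Without that gene the sum was 11659 and 10167 in GFP+ cells, 6853 and 8037 in GFP+/- cells and 15789 in NT cells. That remainder was mostly *Atp1b1*, with 10102 and 8113 in GFP+ cells, 4459 and 5539 in GFP+/- cells and 14557 in NT cells. Neither sum therefore speaks for the list as a whole. Astrocyte markers (14 of 16) summed to between 42649 and 48317 on all 5 arrays, but the members went different ways: 6 were highest in NT cells, among them *Aldoc* and *Fabp7*, 4 were lowest there, among them *Vim* and *Glul*, and 4 lay within the range of the transfected arrays. Oligodendrocyte markers (9 of 13) summed to between 1719 and 1834. Microglia and macrophage markers (11 of 17, with *Fcgr2b* near the floor on all arrays) summed to 1369 and 1181 on the GFP+ arrays, 862 and 693 on the GFP+/- arrays and 1109 on the NT array. Hepatocyte markers (15 of 15, with *Ambp* and *Tat* near the floor on all arrays) summed to between 1013 and 1366. Hypothalamic peptide genes (15 of 16) summed to between 5387 and 7343, and the brighter *Trh* probe set had 115 and 141 in GFP+ cells, 109 and 106 in GFP+/- cells and 96.6 in NT cells. The oligodendrocyte and hepatocyte sums in NT cells lay within the range of the transfected arrays. Members of the oligodendrocyte and peptide lists went different ways, so these sums do not speak for each member. *Ugt8* had 311 in NT cells and 98.3 to 123 in transfected cells, whereas *Cnp* had 285 and 364 to 642. *Pmch* had 893 in NT cells and 208 to 373 in transfected cells, whereas *Pomc* had 84.3 and 198 to 303. The part of these marker shifts in the member signals was not tested.

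The state of the RNA also differed between transfected and NT cells. The ratio of the 3' to the 5' control probe sets of *Gapdh* was 14.6 and 17.6 on the GFP+ arrays, 12.7 and 14.2 on the GFP+/- arrays and 5.45 on the NT array, and that of *Actb* was 22.9 and 18.7, 31.4 and 14.4, and 10.9, in the same order. Both ratios were lowest in NT cells, which is the split along which *Lcn2*, *C3* and *Cp* differed, and their part in the member signals was not tested.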

How the data were processed

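RNA of GFP+, GFP+/- and NT cells had been hybridized to 5 rat U34A arrays. The authors summarised each probe set with MAS 5.0, and the deposited values are linear signal intensities with a trimmed mean (2% off either end) of 501 on every array. All columns were mapped to a population. Detection calls were not used here. Precision is limited by the number of arrays, which carry no read depth. The table lists 8799 probe sets, and without 59 controls 8740 were analysed. In the platform annotation 7006 of these carry 1 gene, 308 several and 1426 none, and 6985 of the 7006 symbols were found in RefSeq (GRCr8). Promoter sequences were found for *Lcn2*, *C3*, *Cp* and *Tf*.

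Member ratios are ratios of averaged signals, as in the methods. For the lists, signals under 1 were set to 1, and log2 signals were fitted in R 4.3.3 with limma 3.58.1 (an intensity trend, 1 mean per population, no covariate), with 0.05 as the adjusted threshold. NT was assumed to vary like the other populations. Signals were not filtered. Steps were tested on simulated data. Other steps used Python 3.11.15, pandas 2.3.3, numpy 2.4.6 and, for plots, matplotlib 3.10.9.

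The 6 genes, the pathway lists, the marker lists and the tests were chosen with earlier results of these arrays known. Named were every member probe set, every list gene past the threshold, otherwise up to 4 of the largest differences among the brightest 41% of probe sets, and the 6 genes nearest to *Lcn2*. *C1qb*, *Alb*, *Trh*, the markers and *Itgam* between GFP+ and GFP+/- cells were named after their values were seen. So were *Tfrc*, *Stat3*, *Socs3* and the inducing cytokines over NT cells. Alternatives were quantile normalization, equal medians, 16 added to each signal, signals raised to the 20th percentile of their array, only the brightest 41%, no trend, only the transfected arrays, a replicate block, each GFP+ or GFP+/- array left out, and all probe sets of a gene averaged. Member ranks and counts with raised signals, and marker sums without their leading genes, were added after the data were seen.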

Additional observations from a re-analysis of the deposited data

How the results depend on the processing

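For the member probe sets, 23 of 351 log2 ratios under the alternatives had the opposite sign to the deposited one, in 12 ratios of *C3*, *Cp* and *A2m*. Of the 117 values for ratios of at least 1 log2 unit, 1 did: M29866_s_at of *C3* in GFP+/- over NT (-0.19 with signals raised to the 20th percentile of their array). Among the others, X52477_at of *C3* in GFP+ over GFP+/- was 0.084 without GFP+/- array 1, and M23566exon_s_at of *A2m* in GFP+ over NT was -0.28 without GFP+ array 2. Member sets more than 2-fold apart numbered between 0 and 3 for GFP+ against GFP+/- cells with an array left out, 6 to 7 for GFP+ and 6 to 6 for GFP+/- against NT. Over all probe sets, calls between GFP+ and GFP+/- cells went to 144 (80 higher, 64 lower) among the brightest 41% and to 4 (*Actg2*, *Nefh*, *Txnip* and *Mdm2*) with raised signals, and other acute phase genes called there to 3 of 6 tested. Calls against NT, 738 for GFP+ and 807 for GFP+/- cells, became 1133 for GFP+ among the brightest 41%, where fewer probe sets were tested, and 2 in each comparison (*Lcn2* and *Mapk6*) without a trend. With an array left out, they were 1 to 1 for GFP+ (*Lcn2* each time) and 1 to 333 for GFP+/- cells. Other acute phase genes called against NT were 0 in each comparison without a trend, 0 to 0 for GFP+ and 0 to 1 for GFP+/- with an array left out, and 5 for GFP+ with all probe sets of a gene averaged. Between GFP+ and GFP+/- cells the unadjusted calls were 65.8% higher as deposited, 51.5% after quantile normalization and 42.5% with equal medians. Small GFP+ minus GFP+/- differences reversed for *Cr1l* (-0.069 after quantile normalization and -0.15 with equal medians; -0.12 without GFP+ array 1 and -0.073 without GFP+/- array 2), *Lrp2* and *App*. With an array left out, these ranged between -0.12 and 0.14 for *Cr1l*, -0.042 and 1.09 for *Lrp2*, and -0.045 and 0.38 for *App*. Of the 25 list calls, 25 were kept with 16 added, 24 with either scaling, 23 with raised signals and 16 with the mean of probe sets. Leaving out an array left 1 residual degree of freedom. *Lcn2* was chosen for its signals on these contrasts, so its calls under any setting are no test of it. They also rest on the same NT array, where its signal was near the floor. Causes were not tested.

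The replicate numbers pair nothing in the labels, and same-numbered GFP+ and GFP+/- arrays deviated together weakly (r = 0.063 over 8740 probe sets and 0.20 over the brightest 3583). With the replicate number as a block, calls were 904 for GFP+ and 977 for GFP+/- against NT and 0 for GFP+ against GFP+/-, and all 25 list calls were kept.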
